A study of Drosophila melanogaster with 7 samples.

Results

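The removal of 1 functional copy of puckered (puc) was examined in adult Drosophila midguts labelled as carrying RNAi against schnurri (shn). The comparison set the 2 libraries of the genotype esgts> Shn-RNAi,PucE69/+ (Shn-RNAi puc) against the 2 libraries of esgts> Shn-RNAi (Shn-RNAi). The 3 control libraries (esgts> w1118) served as a reference level. These 4 RNAi libraries of the 7 in the series were chosen by genotype label, not by any measured value, and all genes were described. Earlier results of these data were known when the comparison was chosen. Crosses were kept at 18 °C and adults were moved to 29 °C for 7 days, a shift that all 3 groups share. The driver, esgts, is a temperature-sensitive Gal4 system under escargot control that is active in intestinal stem cells and enteroblasts. The RNAi was therefore directed at the progenitor cells, whereas the E69 allele of the PucE69/+ flies is carried by every cell of the animal. RNA came from whole midguts, dissected free of the crop, hindgut and Malpighian tubules. The labels do not give the sex of the flies, the number of guts in a library or whether libraries came from separate flies, so a p-value speaks only of variation among the libraries at hand.

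The Jun N-terminal kinase (JNK) pathway is a stress-activated kinase cascade. In the fly it runs through the kinases hemipterous (hep) and basket (bsk) to the AP-1 factors Jra and kay. The gene puc encodes a phosphatase that inactivates the Basket kinase and is itself switched on by the pathway, which closes a negative feedback loop. Heterozygous puc alleles are widely used to raise JNK activity. The E69 allele is an enhancer-trap insertion in puc that carries lacZ and a rosy marker. Schnurri is a zinc-finger cofactor of the bone morphogenetic protein (BMP) pathway that acts with Mad and Medea in the nucleus. In the adult midgut JNK signalling is known for its part in stress responses, stem cell proliferation and turnover of the epithelium.

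Levels are given as CPM (library-size-scaled counts, adjusted by the trimmed mean of M-values), and libraries are written in the order 1 and 2. Genes were called where the adjusted p was under 0.05 in edgeR's quasi-likelihood test, adjusted by Benjamini-Hochberg over all genes tested, and every adjusted p below is from that test unless DESeq2 is named. Total counts ran from 11552527 to 18490676 per library. Among the 4 RNAi libraries, Shn-RNAi library 2 stood apart on the second principal component and had the highest level in 30.8% of the tested genes. The root-mean-square log2 difference over genes was 0.548 between the 2 Shn-RNAi puc libraries and 0.734 between the 2 Shn-RNAi libraries. It was between 0.623 and 0.703 for the 4 pairs that join the 2 genotypes, so the genotypes lay no farther apart than the 2 Shn-RNAi libraries did from each other. Enterocyte, progenitor and enteroendocrine markers were present in every library, among them Myo31DF, alphaTry, esg, Dl, pros and Tk.

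The puc transcript was at 86.5 and 88.3 CPM in Shn-RNAi puc, against 93.5 and 101 CPM in Shn-RNAi and 70.2 to 82.2 CPM in controls. Both Shn-RNAi puc libraries lay below both Shn-RNAi libraries and above all controls. The log2 difference between Shn-RNAi puc and Shn-RNAi was -0.16 ± 0.16 (SE), with a 95% interval of -0.52 to 0.20 and an adjusted p of 0.916 in edgeR. The interval excludes a 2-fold lower level. Counts per gene do not separate the 2 alleles of puc or a shortened transcript from a full one. The shn transcript was at 66.5 and 69.7 CPM in Shn-RNAi puc, against 68.6 and 54.1 CPM in Shn-RNAi and 42.4 to 47.4 CPM in controls. The 2 RNAi groups overlapped (log2 difference 0.15 ± 0.17, adjusted p = 0.928 in edgeR), and all 4 RNAi libraries were higher than all 3 controls. The level of shn RNA in the whole midgut thus shows no knockdown, and the RNAi groups are called by their labels throughout.

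Of 9076 genes tested, 8 rose and 5 fell in Shn-RNAi puc relative to Shn-RNAi, 13 in all (0.143%; 0.0881% higher and 0.0551% lower). Each of the 13 differed by at least 2-fold. At an unadjusted p under 0.05 there were 311 higher (3.43%) and 268 lower genes (2.95%). Both Shn-RNAi puc libraries lay above both Shn-RNAi libraries in 1462 genes (16.1%) and below them in 1078 (11.9%). The median log2 difference over all genes was -0.01, with quartiles of -0.21 and 0.17. DESeq2 called 38 higher and 46 lower genes, and these 84 included all 13. With a trend of level on transcript length taken out of each library, edgeR called 18 higher and 11 lower genes, again with all 13 among them.

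**Figure D1:**
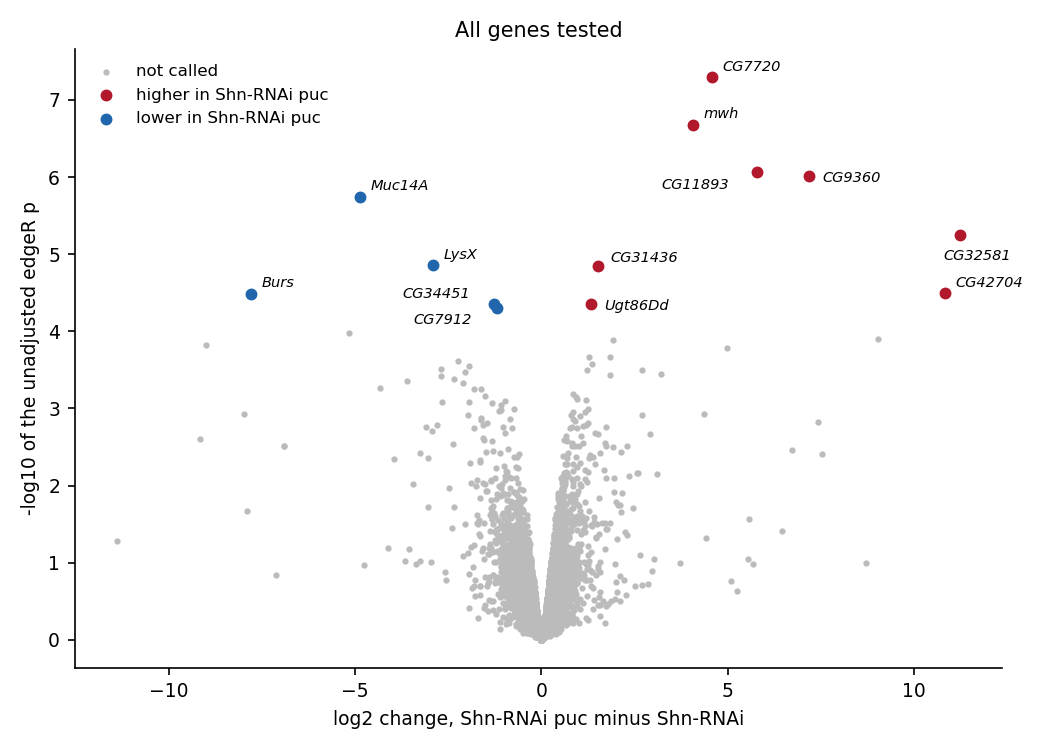
Each point is 1 of the 9076 genes tested, with the log2 difference of Shn-RNAi puc minus Shn-RNAi on the x axis and -log10 of the unadjusted edgeR p on the y axis. The 8 genes called higher are red, the 5 called lower are blue, and the named points stand above the dense cloud near 0.

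The genes that rose included a transporter and several enzymes. CG7720, which encodes a predicted sodium/solute symporter, had 422 and 378 CPM in Shn-RNAi puc, against 13.95 and 19.2 CPM in Shn-RNAi and 53.4 to 64.6 CPM in controls. Its levels in the 2 Shn-RNAi puc libraries were the highest of the 7, and the Shn-RNAi libraries were the lowest. The log2 difference was 4.59 ± 0.24 (SE; adjusted p = 0.000462, edgeR), a 24.1-fold rise. CG9360, a predicted short-chain dehydrogenase, had 215 and 105 CPM in Shn-RNAi puc, against 0.560 and 1.69 CPM in Shn-RNAi and 1.22 to 1.59 CPM in controls. It was thus near the bottom of detection in all 5 libraries without the puc allele and abundant in both with it (log2 difference 7.20 ± 0.54, adjusted p = 0.00218, edgeR). CG9360 overlaps the gene m on the opposite strand, and reads of the 2 genes cannot be told apart unless strand was used in counting.

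A pair of predicted ecdysteroid kinase-like genes that lie 12771 bp apart on chromosome arm 3R both rose. CG11893 had 80.1 and 41.1 CPM in Shn-RNAi puc, against 1.01 and 1.17 CPM in Shn-RNAi and 0.996 to 1.91 CPM in controls (log2 difference 5.79 ± 0.43, adjusted p = 0.00218, edgeR). Its neighbour CG31436 had 22.4 and 20.8 CPM in Shn-RNAi puc, against 7.51 and 7.63 CPM in Shn-RNAi and 10.02 to 11.6 CPM in controls (log2 difference 1.51 ± 0.16, adjusted p = 0.0163, edgeR). In both genes the 2 Shn-RNAi puc libraries were the highest of the 7, but the size of the difference was far larger in CG11893. Ugt86Dd, a UDP-glycosyltransferase of the family that conjugates sugars to small molecules for detoxification, had 51.8 and 49.0 CPM in Shn-RNAi puc, against 19.5 and 20.3 CPM in Shn-RNAi and 72.8 to 90.0 CPM in controls. It rose 2.53-fold (log2 difference 1.34 ± 0.17, adjusted p = 0.0334, edgeR) and stayed below all 3 controls.

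The gene multiple wing hairs (mwh), which restricts the number of hairs per wing cell in the planar polarity pathway, had 30.0 and 41.8 CPM in Shn-RNAi puc, against 2.41 and 1.84 CPM in Shn-RNAi and 56.9 to 68.3 CPM in controls. The 3 groups did not overlap, with Shn-RNAi lowest and controls highest, and mwh rose 16.7-fold over Shn-RNAi (log2 difference 4.06 ± 0.25, adjusted p = 0.000951, edgeR). In the annotation mwh spans the lysozyme genes LysB, LysC, LysD, LysE, LysP and LysS, so some reads of this region could be credited to either. The last 2 genes that rose, CG32581 and CG42704, were at 0 counts in all 5 libraries without the puc allele. CG32581 had 18.5 and 21.9 CPM in Shn-RNAi puc, which is at least 211-fold higher than Shn-RNAi when Shn-RNAi is set at 3 counts over its 2 libraries (adjusted p = 0.00863, edgeR). CG42704 had 18.8 and 11.6 CPM in Shn-RNAi puc, at least 161-fold higher on the same rule (adjusted p = 0.0295, edgeR). Its neighbour CG42705, 573 bp away and named after its values were seen, was also at 0 in those 5 libraries. CG42705 had 4.48 and 4.24 CPM in Shn-RNAi puc (adjusted p = 0.0725 in edgeR and 8.46e-05 in DESeq2). With only the 4 RNAi libraries, or with a transcript-length trend taken out, edgeR called it higher (adjusted p = 0.0140 and 0.0473).

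Only CG7720, mwh and CG9360 were called in all 7 fits that each left out 1 library. Of the other genes called higher, CG11893 and CG32581 were called in 5 of these fits, CG42704 in 3, CG31436 in 1 and Ugt86Dd in none. The highest adjusted p over these fits was 0.0581 for CG11893 without Shn-RNAi library 2, 0.399 for CG32581 without Shn-RNAi puc library 2 and 0.467 for CG42704 without Shn-RNAi puc library 1. For CG31436 and Ugt86Dd it was 0.278 and 0.347, each without Shn-RNAi puc library 1. With only the 4 RNAi libraries in the fit, CG31436 and Ugt86Dd also lost their calls (adjusted p = 0.115 and 0.133, edgeR).

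**Figure D2:**
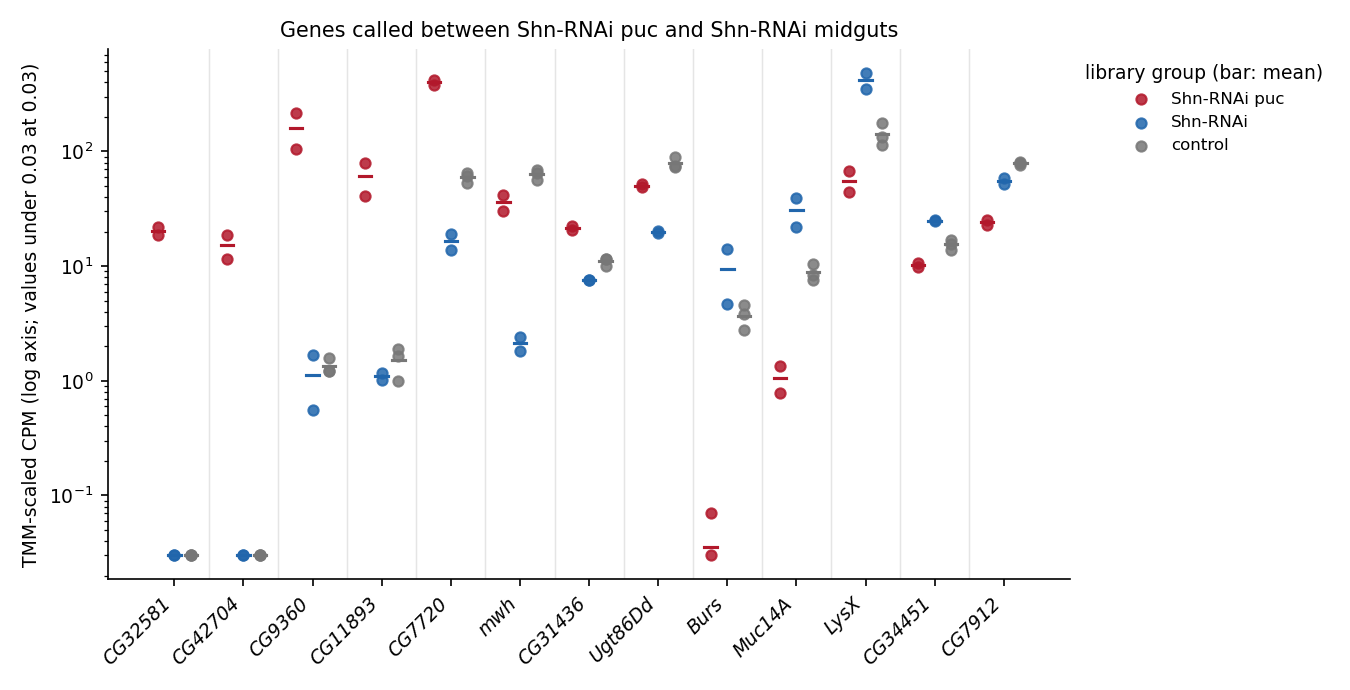
The level of each called gene is plotted per library on a logarithmic CPM axis, with Shn-RNAi puc in red, Shn-RNAi in blue, control in grey, a bar at each group mean, and libraries at or near 0 drawn at the bottom. The 8 genes at the left were called higher and the 5 at the right lower in Shn-RNAi puc, and in no gene did the red and blue points overlap.

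The 5 genes that fell encode a hormone subunit, a mucin, a lysozyme, a predicted transporter and an uncharacterised product. Burs, a subunit of the hormone bursicon that enteroendocrine cells of the adult midgut secrete, had 0 and 1 counts in the 2 Shn-RNAi puc libraries, against 278 counts over the 2 Shn-RNAi libraries. Its level was 0 and 0.0707 CPM in Shn-RNAi puc, against 4.71 and 14.2 CPM in Shn-RNAi and 2.79 to 4.54 CPM in controls. It was thus nearly absent from both Shn-RNAi puc libraries and present in the other 5. The Shn-RNAi level was 261 times the Shn-RNAi puc level, with a 95% counting interval of 46.5 to 10300 (adjusted p = 0.0295, edgeR). In whole tissue, fewer cells of a type and less RNA per cell cannot be told apart. The tachykinin gene Tk, another enteroendocrine marker, had 70.6 and 71.9 CPM in Shn-RNAi puc, against 63.5 and 61.5 CPM in Shn-RNAi and 49.8 to 54.4 CPM in controls.

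Muc14A, which encodes a mucin, had 0.780 and 1.34 CPM in Shn-RNAi puc, against 39.6 and 22.1 CPM in Shn-RNAi and 7.53 to 10.5 CPM in controls. The 3 groups did not overlap, and the log2 difference was -4.86 ± 0.40 (adjusted p = 0.00326, edgeR). LysX, a lysozyme of the digestive C-type family, had 44.2 and 67.3 CPM in Shn-RNAi puc, against 354 and 480 CPM in Shn-RNAi and 114.8 to 176 CPM in controls. Here too the 3 groups were apart, with Shn-RNAi highest and Shn-RNAi puc lowest (log2 difference -2.90 ± 0.31, adjusted p = 0.0163, edgeR). CG7912, a predicted sulfate transporter, had 25.3 and 22.8 CPM in Shn-RNAi puc, against 58.6 and 52.1 CPM in Shn-RNAi and 76.1 to 81.0 CPM in controls (log2 difference -1.20 ± 0.15, adjusted p = 0.0347, edgeR). It overlaps Nlp on the opposite strand. CG34451 had 9.87 and 10.6 CPM in Shn-RNAi puc, against 24.7 and 25.1 CPM in Shn-RNAi and 13.8 to 17.1 CPM in controls (log2 difference -1.28 ± 0.16, adjusted p = 0.0334, edgeR). For CG7912 and CG34451 each group's libraries were close together, and the change was little more than 2-fold.

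None of the 5 was called in all 7 fits that left out 1 library. Muc14A was called in 5 of them, LysX in 4, Burs in 3, and CG34451 and CG7912 in 0. The highest adjusted p was 0.244 for Muc14A, 0.341 for LysX, 0.428 for Burs and 0.381 for CG34451, each without Shn-RNAi puc library 1, and 0.400 for CG7912 without Shn-RNAi puc library 2. With only the 4 RNAi libraries in the fit, CG34451 and CG7912 lost their calls (adjusted p = 0.159 and 0.181, edgeR). With either Shn-RNAi puc library left out, edgeR called 4 genes higher and 0 lower. At an unadjusted p under 0.05 the fit without library 1 had 187 higher and 229 lower genes, and the fit without library 2 had 284 and 208.

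Read against the controls, the 13 called genes did not share a direction. In 9 of them the control mean was nearer on the log scale to the Shn-RNAi mean, and in 4 (mwh, Ugt86Dd, LysX and CG34451) it was nearer to the Shn-RNAi puc mean. CG32581, CG42704, CG9360 and CG11893 were at control-like levels in Shn-RNAi and above them in Shn-RNAi puc. For mwh and Ugt86Dd the controls lay above both RNAi groups, with Shn-RNAi puc between. For CG7912 the controls also lay above both RNAi groups, with Shn-RNAi between.

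Several genes just short of the threshold had large differences. The xanthine dehydrogenase gene ry (rosy) had 83.3 and 46.8 CPM in Shn-RNAi puc, against 21.5 and 14.9 CPM in Shn-RNAi and 20.9 to 22.2 CPM in controls. Its 2 Shn-RNAi puc libraries were the highest of the 7, with a log2 difference of 1.84 ± 0.29 (adjusted p = 0.0988 in edgeR and 7.51e-06 in DESeq2). The E69 insertion carries a rosy marker, and its part in this level was not tested. CG43120 had 27.8 and 36.4 CPM in Shn-RNAi puc, against 7.62 and 9.25 CPM in Shn-RNAi and 10.5 to 18.6 CPM in controls (adjusted p = 0.0725, edgeR). In the other direction the mucin gene Muc18B had 3.64 and 2.97 CPM in Shn-RNAi puc, against 18.6 and 62.4 CPM in Shn-RNAi and 2.31 to 6.36 CPM in controls (adjusted p = 0.125, edgeR). CG18404 had 478 and 381 CPM in Shn-RNAi puc, against 1166 and 2421 CPM in Shn-RNAi and 772 to 946 CPM in controls (adjusted p = 0.114, edgeR). CG32706 and CG1544 had log2 differences of -2.25 and -1.95 (adjusted p = 0.106 and 0.110, edgeR). CG32706 had 1.10 and 1.41 CPM in Shn-RNAi puc, 5.49 and 6.53 CPM in Shn-RNAi and 1.07 to 2.05 CPM in controls. CG1544 had 2.73 and 1.41 CPM in Shn-RNAi puc, 7.68 and 8.44 CPM in Shn-RNAi and 2.51 to 2.82 CPM in controls. Each of these 6 genes had no overlap between the 2 RNAi groups, none was called by edgeR in the fit of all 7 libraries, and all 6 were called by DESeq2. With the transcript-length trend taken out, edgeR also called ry higher (adjusted p = 0.0473) and CG18404 lower (adjusted p = 0.0100). CG43120 was called higher without control library 3 (adjusted p = 0.0318, edgeR), and CG18404 lower without Shn-RNAi library 1 (adjusted p = 0.0352, edgeR).

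The JNK pathway itself, of which puc is the feedback phosphatase, had no member called. All 21 genes of the pathway and its regulators were tested, and 0 were called by edgeR or DESeq2 and 0 had an unadjusted p under 0.05. Over all genes edgeR called 0.143%, and 3.43% were higher and 2.95% lower at an unadjusted p under 0.05. At that share of calls, 0 calls do not set these 21 genes, or the lists below, apart from all genes. The median log2 difference of the 21 was 0.08, against -0.01 over all genes. Without overlap 6 members lay above and 2 below, where 16.1% and 11.9% of all genes did so. The kinase gene bsk had 50.3 and 52.4 CPM in Shn-RNAi puc, against 48.3 and 54.7 CPM in Shn-RNAi and 48.1 to 52.3 CPM in controls, so the 3 groups coincided. The kinase gene hep had a log2 difference of -0.30 (95% interval -0.75 to 0.16), the ligand egr 0.24 (-0.09 to 0.57) and its receptor grnd 0.38 (-0.40 to 1.17). The AP-1 subunit Jra had 94.7 and 78.8 CPM in Shn-RNAi puc, against 62.5 and 71.9 CPM in Shn-RNAi and 48.1 to 57.2 CPM in controls, with no overlap and an adjusted p of 0.804 in edgeR. Its partner kay had 175 and 240 CPM in Shn-RNAi puc, against 199 and 240 CPM in Shn-RNAi and 94.2 to 120 CPM in controls.

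Genes known to be induced by JNK and stress gave 0 calls by edgeR among 20 tested, with a median of 0.10, 1 higher at an unadjusted p under 0.05 and 1 higher by DESeq2. That gene was Hml, which is also a blood cell gene. The matrix metalloproteinase Mmp1 had 140 and 134 CPM in Shn-RNAi puc, against 133 and 91.9 CPM in Shn-RNAi and 75.4 to 96.6 CPM in controls. The growth-arrest gene Gadd45 had 30.7 and 30.6 CPM in Shn-RNAi puc, against 23.7 and 30.8 CPM in Shn-RNAi and 12.6 to 13.5 CPM in controls. Gadd45 overlapped between the 2 RNAi groups, Mmp1 lay narrowly above, and neither passed the test (adjusted p = 0.892 and 0.912, edgeR). Ilp8, an insulin-like peptide released by damaged tissue, was too scarce to test, with 8 counts over Shn-RNAi puc, 5 over Shn-RNAi and 3 over controls.

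The cytokines that act from JNK-active cells on the JAK-STAT pathway were also without a call. The ligand upd3 had 36.1 and 50.8 CPM in Shn-RNAi puc, against 26.7 and 35.9 CPM in Shn-RNAi and 1.83 to 4.26 CPM in controls. The ligand upd1 had 14.4 and 16.5 CPM in Shn-RNAi puc, against 13.6 and 21.3 CPM in Shn-RNAi, and was at 0 or 0.0553 CPM in controls. The ligand upd2 had 2.92 and 7.98 CPM in Shn-RNAi puc, against 3.92 and 1.39 CPM in Shn-RNAi and 0.143 to 0.443 CPM in controls. All 3 ligands were above every control in all 4 RNAi libraries, and their log2 differences between the 2 RNAi groups had intervals that include 0 (upd3 0.47, -0.24 to 1.19; upd1 -0.17, -0.81 to 0.46; upd2 1.01, -0.42 to 2.44). The pathway's target Socs36E, a feedback inhibitor, had 266 and 386 CPM in Shn-RNAi puc, against 367 and 457 CPM in Shn-RNAi and 27.3 to 47.1 CPM in controls. Of 16 JAK-STAT genes tested, 0 were called by edgeR, and 2 (TotA and TotC) were lower by DESeq2.

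Other signalling lists gave no calls between the 2 RNAi genotypes, where edgeR called 0.143% of all genes. The BMP list, in which shn belongs, had 16 members tested with a median of 0.10, and 0 with an unadjusted p under 0.05. The EGFR, Notch, Wingless, Hippo and insulin lists had medians between -0.15 and 0.09, and 0 members called by edgeR or DESeq2. At an unadjusted p under 0.05 the EGFR list had 1 higher member, the protease gene stet at 1.04 and 2.05 CPM in Shn-RNAi puc, against 0.168 and 0.440 CPM in Shn-RNAi. It also had 1 lower member, the EGFR inhibitor sprouty (sty). This gene had 24.8 and 34.3 CPM in Shn-RNAi puc, against 48.1 and 41.5 CPM in Shn-RNAi. Controls were at 0.111 to 0.2865 CPM for stet and 28.5 to 32.25 CPM for sty. The Wingless list had 1 lower member at that level and the Notch, Hippo and insulin lists 0. Among tumour-secreted factors, 12 tested, 0 were called by either tool and 0 had an unadjusted p under 0.05. The insulin antagonist ImpL2 had 435 and 664 CPM in Shn-RNAi puc, against 352 and 680 CPM in Shn-RNAi and 28.8 to 40.6 CPM in controls. The growth factor Pvf1 had 40.0 and 47.8 CPM in Shn-RNAi puc, against 38.1 and 43.2 CPM in Shn-RNAi and 8.52 to 23.4 CPM in controls. Both genes were well above every control in all 4 RNAi libraries and overlapped between the RNAi genotypes.

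The lists of markers of the midgut's own cell types gave no calls by edgeR. The progenitor factor esg had 14.6 and 20.1 CPM in Shn-RNAi puc, against 19.0 and 14.53 CPM in Shn-RNAi and 13.6 to 18.9 CPM in controls. The stem cell ligand Dl had 3.51 and 5.51 CPM in Shn-RNAi puc, against 5.49 and 4.99 CPM in Shn-RNAi and 1.83 to 5.26 CPM in controls. The 3 groups overlapped in both genes. Of 15 progenitor markers tested, 2 lay above and 5 below without overlap, where 16.1% and 11.9% of all genes did so. By either tool 0 were called, with a median of -0.20 and 1 lower member at an unadjusted p under 0.05. That member was the transcription factor zfh2, at 3.18 and 4.95 CPM in Shn-RNAi puc, against 8.91 and 6.09 CPM in Shn-RNAi and 5.09 to 7.25 CPM in controls.

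Of 18 enteroendocrine markers tested, 5 lay above and 1 below without overlap, where 16.1% and 11.9% of all genes did so. The list had 0 called by either tool, a median of 0.12 and 1 lower member at an unadjusted p under 0.05. That member was the secretory granule gene IA-2, at 88.6 and 115.2 CPM in Shn-RNAi puc, against 143 and 148 CPM in Shn-RNAi. Its control level was 61.6 to 82.7 CPM. The lineage factor pros had 4.61 and 6.43 CPM in Shn-RNAi puc, against 5.77 and 4.70 CPM in Shn-RNAi and 2.71 to 4.26 CPM in controls. The peptide gene Orcokinin had 57.2 and 55.5 CPM in Shn-RNAi puc, against 32.1 and 46.8 CPM in Shn-RNAi. Its control level was 43.5 to 66.3 CPM. No other enteroendocrine marker than Burs, which is not in the list, passed the test.

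Enterocyte markers and regional transcription factors had 18 tested, 0 called by edgeR and 1 lower by DESeq2, with a median of 0.15. Of these 18, 5 lay above and 1 below without overlap, where 16.1% and 11.9% of all genes did so. The DESeq2 call was Smvt, a vitamin transporter, at 43.7 and 26.8 CPM in Shn-RNAi puc, against 99.6 and 78.9 CPM in Shn-RNAi and 64.5 to 108 CPM in controls (adjusted p = 0.268, edgeR). The homeobox gene exex had 123 and 154 CPM in Shn-RNAi puc, against 97.5 and 94.95 CPM in Shn-RNAi (adjusted p = 0.626, edgeR). Ptx1, another homeobox gene, had 87.6 and 65.1 CPM in Shn-RNAi puc, against 59.6 and 42.7 CPM in Shn-RNAi (adjusted p = 0.703, edgeR). Controls were at 52.9 to 66.1 CPM for exex and 65.7 to 74.1 CPM for Ptx1. The brush-border myosin Myo31DF had 300.4 and 260 CPM in Shn-RNAi puc, against 304 and 220 CPM in Shn-RNAi and 215 to 219 CPM in controls, and overlapped.

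The Turandot genes, secreted stress peptides induced through JAK-STAT and other stress pathways, had the list median farthest from 0. TotA had 0.715 and 0.565 CPM in Shn-RNAi puc, against 13.5 and 33.8 CPM in Shn-RNAi, and 0 in all controls. TotC had 39.3 and 24.1 CPM in Shn-RNAi puc, against 200.4 and 1083 CPM in Shn-RNAi and 0 to 0.387 CPM in controls. TotZ was at 0 in both Shn-RNAi puc libraries, against 1.79 and 7.85 CPM in Shn-RNAi, at least 43.5-fold lower when Shn-RNAi puc is set at 3 counts over its 2 libraries. TotM, named after its values were seen, had 9.09 and 16.96 CPM in Shn-RNAi puc, against 15.7 and 37.9 CPM in Shn-RNAi and 0.398 to 1.504 CPM in controls. TotA, TotC and TotZ were thus below both Shn-RNAi libraries in both Shn-RNAi puc libraries, and TotM overlapped.

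Of 8 Turandot genes listed 4 were tested, and 0 were called by edgeR, while 3 had an unadjusted p under 0.05 and DESeq2 called TotA and TotC lower. The list median was -4.76 on the log2 scale, also with TotZ at its bound. The edgeR adjusted p was 0.0674 for TotA (log2 difference -5.18 ± 0.57), 0.143 for TotC (-4.34 ± 0.78) and 0.261 for TotZ. With the transcript-length trend taken out, or with only the 4 RNAi libraries in the fit, edgeR called TotA lower (adjusted p = 0.00919 and 0.0101). TotA was called in 4 of the 7 fits without 1 library, and its adjusted p ranged from 0.0352, without Shn-RNAi library 1, to 0.760, without Shn-RNAi puc library 2. All 4 were highest in Shn-RNAi library 2, and without that library the list median was -3.52. TotA and TotC lie 1288 bp apart on chromosome arm 3R.

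No digestive enzyme was called by edgeR in the main analysis, and 38 of the 54 tested overlapped between the 2 RNAi groups. The trypsin gene gammaTry was called lower when Shn-RNAi puc library 1 was paired with Shn-RNAi library 2 (log2 difference -7.92, adjusted p = 0.01995, edgeR). It was called in no other fit, and whether it shares reads with related trypsin genes was not tested. Of the 54, 43 had a negative log2 difference, with a median of -0.38 against -0.01 over all genes. Without overlap 15 lay below and 1 above, where 11.9% and 16.1% of all genes did so. At an unadjusted p under 0.05 (edgeR) 7 were lower, and 2 were lower by DESeq2. Of these enzymes 26 (48.1%) were highest in Shn-RNAi library 2, against 30.8% of all genes. The serine protease Jon25Bi had 474 and 532 CPM in Shn-RNAi puc, against 1762 and 1330 CPM in Shn-RNAi and 3953 to 6503 CPM in controls (log2 difference -1.62 ± 0.29; adjusted p = 0.143 in edgeR and 1.76e-06 in DESeq2). The protease Jon99Ci had 293 and 250.4 CPM in Shn-RNAi puc, against 483 and 389 CPM in Shn-RNAi and 892 to 1125 CPM in controls. In both proteases the 3 groups were apart and Shn-RNAi puc was farthest from the controls. The glucosidase gene tobi had 232 and 259 CPM in Shn-RNAi puc, against 502 and 841 CPM in Shn-RNAi and 161 to 251 CPM in controls (adjusted p = 0.211, edgeR), so Shn-RNAi puc was nearer the controls there. It overlaps the gene rha on the opposite strand. The list median was -0.21 with the 50 most abundant genes left out, and between -0.62 and -0.24 over the fits without 1 library.

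The lysozymes differed among themselves. LysX fell, as above. LysE had 895 and 974 CPM in Shn-RNAi puc, against 263 and 509 CPM in Shn-RNAi and 57.9 to 84.5 CPM in controls. LysC had 3453 and 3701 CPM in Shn-RNAi puc, against 945 and 2121 CPM in Shn-RNAi and 13.7 to 17.3 CPM in controls. LysE and LysC lay above without overlap and were called higher by DESeq2 but not by edgeR (adjusted p = 0.323 and 0.461, edgeR). With the transcript-length trend taken out, edgeR called both higher (adjusted p = 0.0251 for LysE and 0.0139 for LysC). LysB, LysD and LysS, named after their values were seen, were highest in Shn-RNAi library 2 and overlapped. LysD had 8772 and 8232 CPM in Shn-RNAi puc, against 6174 and 24070 CPM in Shn-RNAi. Without Shn-RNAi library 2 the log2 difference was 0.46 for LysD, 0.57 for LysB and 0.77 for LysS, against -0.83, -0.92 and -0.48 with it. LysB, LysC, LysD and LysE are near-identical copies, and these genes and LysS lie inside mwh, so their separate values are uncertain. The list of 7 had a median of -0.60, or 0.77 without that library.

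Many heat shock and antimicrobial genes were highest in Shn-RNAi library 2. Of 28 heat shock and unfolded protein genes, 23 had a negative log2 difference (median -0.45) and 15 were highest in Shn-RNAi library 2. Without overlap 3 lay below, where 11.9% of all genes did so. By edgeR or DESeq2 0 were called, and 1 was lower at an unadjusted p under 0.05 in edgeR. That gene was the endoplasmic chaperone Gp93, at 240.1 and 296 CPM in Shn-RNAi puc, against 453 and 330 CPM in Shn-RNAi. Its control level was 441 to 566 CPM. Without Shn-RNAi library 2 the list median was 0.01. Hsp26 had 58.9 and 51.4 CPM in Shn-RNAi puc, against 22.8 and 380 CPM in Shn-RNAi, and Hsp68 showed the same order. Hsp70Bbb had 0.585 and 2.26 CPM in Shn-RNAi puc, against 0.392 and 33.2 CPM in Shn-RNAi. Without that library the log2 differences were 1.27 for Hsp26, 1.11 for Hsp68 and 1.83 for Hsp70Bbb, the reverse of -1.87, -1.81 and -3.56 with it.

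Of 21 antimicrobial and immune deficiency pathway genes, 14 had a positive and 7 a negative log2 difference, from -2.49 to 5.69 with a median of 0.16. In this list 4 lay above and 1 below without overlap, where 16.1% and 11.9% of all genes did so. By either tool 0 were called, and 1 was higher and 3 were lower at an unadjusted p under 0.05. The 3 lower genes were Drsl2, PGRP-SC1a and PGRP-SC1b. PGRP-SC1b, a peptidoglycan-degrading amidase, had 25.6 and 23.5 CPM in Shn-RNAi puc, against 21.7 and 184 CPM in Shn-RNAi and 152 to 275 CPM in controls. Drsl2, a drosomycin-like peptide, had 8.32 and 11.8 CPM in Shn-RNAi puc, against 14.46 and 98.6 CPM in Shn-RNAi and 0.478 to 1.33 CPM in controls. Both genes were far higher in Shn-RNAi library 2 than in library 1, and without library 2 the log2 difference of PGRP-SC1b was 0.17.

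**Figure D3:**
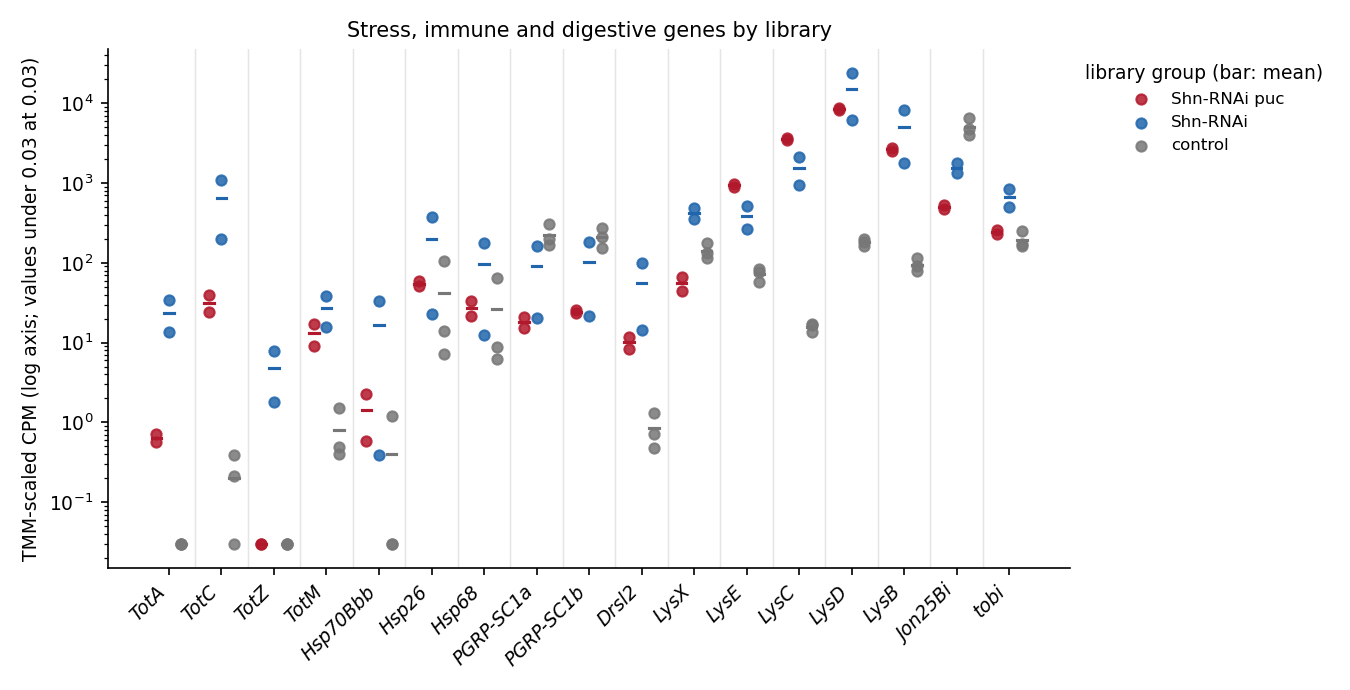
Levels of stress, immune and digestive genes per library are plotted on a logarithmic CPM axis, with Shn-RNAi puc in red, Shn-RNAi in blue, control in grey and a bar at each group mean. TotA, TotC, TotZ and LysX have both red points below both blue points, whereas in the heat shock genes, LysD and PGRP-SC1b 1 blue point, Shn-RNAi library 2, stands above the other 3 RNAi libraries.

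Metabolic lists had no calls by either tool. The 20 subunits of the vacuolar proton pump that were tested had 18 positive log2 differences and a median of 0.18. Of these 20, 13 were highest in Shn-RNAi puc library 1, where 23.6% of all genes were. Their summed level overlapped between the RNAi groups, at 12090 to 13990 CPM in Shn-RNAi puc and 9423 to 12720 CPM in Shn-RNAi. In controls it was 13940 to 16810 CPM. Without overlap 8 lay above, where 16.1% of all genes did so, and 1 was higher at an unadjusted p under 0.05 in edgeR. That subunit was VhaPPA1-1, at 591 and 467 CPM in Shn-RNAi puc, against 414 and 299.5 CPM in Shn-RNAi. Its control level was 459.5 to 551 CPM. Of 67 nuclear genes of oxidative phosphorylation, 54 were negative with a median of -0.17, but none was free of overlap and 0 had an unadjusted p under 0.05. Of these 67 genes, 27 were highest in Shn-RNAi puc library 1 and 40 (59.7%) in Shn-RNAi library 2, and over the fits without 1 library their median ran from -0.39 to 0.054. Detoxification and oxidative stress genes had 47 tested, with a median of -0.0018, and 2 higher and 5 lower at an unadjusted p under 0.05. The cytochrome P450 Cyp9b2 had 390 and 312 CPM in Shn-RNAi puc, against 229 and 245 CPM in Shn-RNAi (adjusted p = 0.559, edgeR). In the other direction Keap1 had 34.3 and 33.35 CPM in Shn-RNAi puc, against 44.3 and 48.9 CPM in Shn-RNAi. Cyp12d1-p had 21.8 and 24.1 CPM in Shn-RNAi puc, against 33.2 and 32.0 CPM in Shn-RNAi. Controls were at 198 to 216 CPM for Cyp9b2, 37.8 to 43.1 CPM for Keap1 and 40.7 to 51.4 CPM for Cyp12d1-p. Of 66 cell cycle and replication genes, 0 were higher and 1 was lower at an unadjusted p under 0.05. It was the replication factor Psf1, at 6.04 and 6.08 CPM in Shn-RNAi puc, against 9.98 and 20.3 CPM in Shn-RNAi. Its control level was 4.54 to 5.66 CPM.

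Blood cell markers had 15 tested of 22, with a median of 0.20, 0 calls by edgeR and 1 higher by DESeq2. At an unadjusted p under 0.05 (edgeR) 5 were higher and 1 was lower. Without overlap 5 lay above and 4 below, where 16.1% and 11.9% of all genes did so. The clotting protein Hml had 3.44 and 4.80 CPM in Shn-RNAi puc, against 0.785 and 0.440 CPM in Shn-RNAi and 0.430 to 0.796 CPM in controls (log2 difference 2.71 ± 0.45; adjusted p = 0.110 in edgeR and 0.0100 in DESeq2). The prophenoloxidase PPO2 had 2.34 and 3.25 CPM in Shn-RNAi puc, against 0.616 and 0.367 CPM in Shn-RNAi and 0.215 to 2.27 CPM in controls. PPO1, the blood cell factor srp and the thioester protein Tep3 also lay above both Shn-RNAi libraries. In the other direction the thioester protein Tep2 had 18.7 and 17.7 CPM in Shn-RNAi puc, against 26.4 and 32.8 CPM in Shn-RNAi and 7.41 to 12.6 CPM in controls (log2 difference -0.70, adjusted p = 0.625, edgeR). PPO3, Pxn and Ppn were the other 3 markers below both Shn-RNAi libraries, with log2 differences of -1.08, -0.36 and -0.06 (0.0805 for Ppn with the transcript-length trend taken out), so the list did not differ in a single direction. The phagocytic receptor gene NimC1 had 3 and 7 counts in Shn-RNAi puc, 0 in Shn-RNAi and 12 over the controls. The receptor gene eater had 5 and 8 counts in Shn-RNAi puc, 0 in Shn-RNAi and 1 over the controls, and both were too scarce to test. The summed level of the list was 424 to 434 CPM in Shn-RNAi puc, against 363 to 421 CPM in Shn-RNAi and 204 to 304 CPM in controls. The part of these cells in the called genes was not tested.

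Visceral muscle markers had 24 tested, 20 negative, a median of -0.22, 0 called by edgeR and 1 lower by DESeq2. At an unadjusted p under 0.05 (edgeR) 3 were lower and 1 was higher. Without overlap 8 lay below and 1 above, where 11.9% and 16.1% of all genes did so. The DESeq2 call was the troponin TpnC47D, at 21.6 and 18.3 CPM in Shn-RNAi puc, against 30.7 and 37.9 CPM in Shn-RNAi and 81.6 to 83.6 CPM in controls. The actin Act87E had 93.3 and 82.0 CPM in Shn-RNAi puc, against 143 and 118 CPM in Shn-RNAi and 281 to 327 CPM in controls. In these 2 muscle genes the order was controls highest, Shn-RNAi between and Shn-RNAi puc lowest. The 1 higher member, Zasp52, had the opposite order. It had 203 and 171.5 CPM in Shn-RNAi puc, 137 and 138 CPM in Shn-RNAi and 63.9 to 77.1 CPM in controls. The summed muscle level was 3336 to 3763 CPM in Shn-RNAi puc, against 3942 to 4175 CPM in Shn-RNAi and 5437 to 5762 CPM in controls. Fat body markers had 15 tested, 0 called by edgeR, 1 lower at an unadjusted p under 0.05 and 1 lower by DESeq2, with a median of -0.14. The storage protein gene Lsp1gamma had 1.43 and 2.40 CPM in Shn-RNAi puc, against 6.50 and 10.1 CPM in Shn-RNAi. Its control level was 1.83 to 2.93 CPM. The summed fat body level was 440.1 to 478 CPM in Shn-RNAi puc, against 397 to 689 CPM in Shn-RNAi and 518 to 904 CPM in controls. Tracheal and Malpighian tubule markers gave 0 calls by either tool, with 2 higher and 0 lower tracheal members and 1 higher and 2 lower tubule members at an unadjusted p under 0.05. The hindgut factor byn had 12.7 to 18.0 CPM in Shn-RNAi puc, against 10.6 to 12.2 CPM in Shn-RNAi and 4.87 to 8.44 CPM in controls. The part of these tissues in the differences was not tested.

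**Figure D4:**
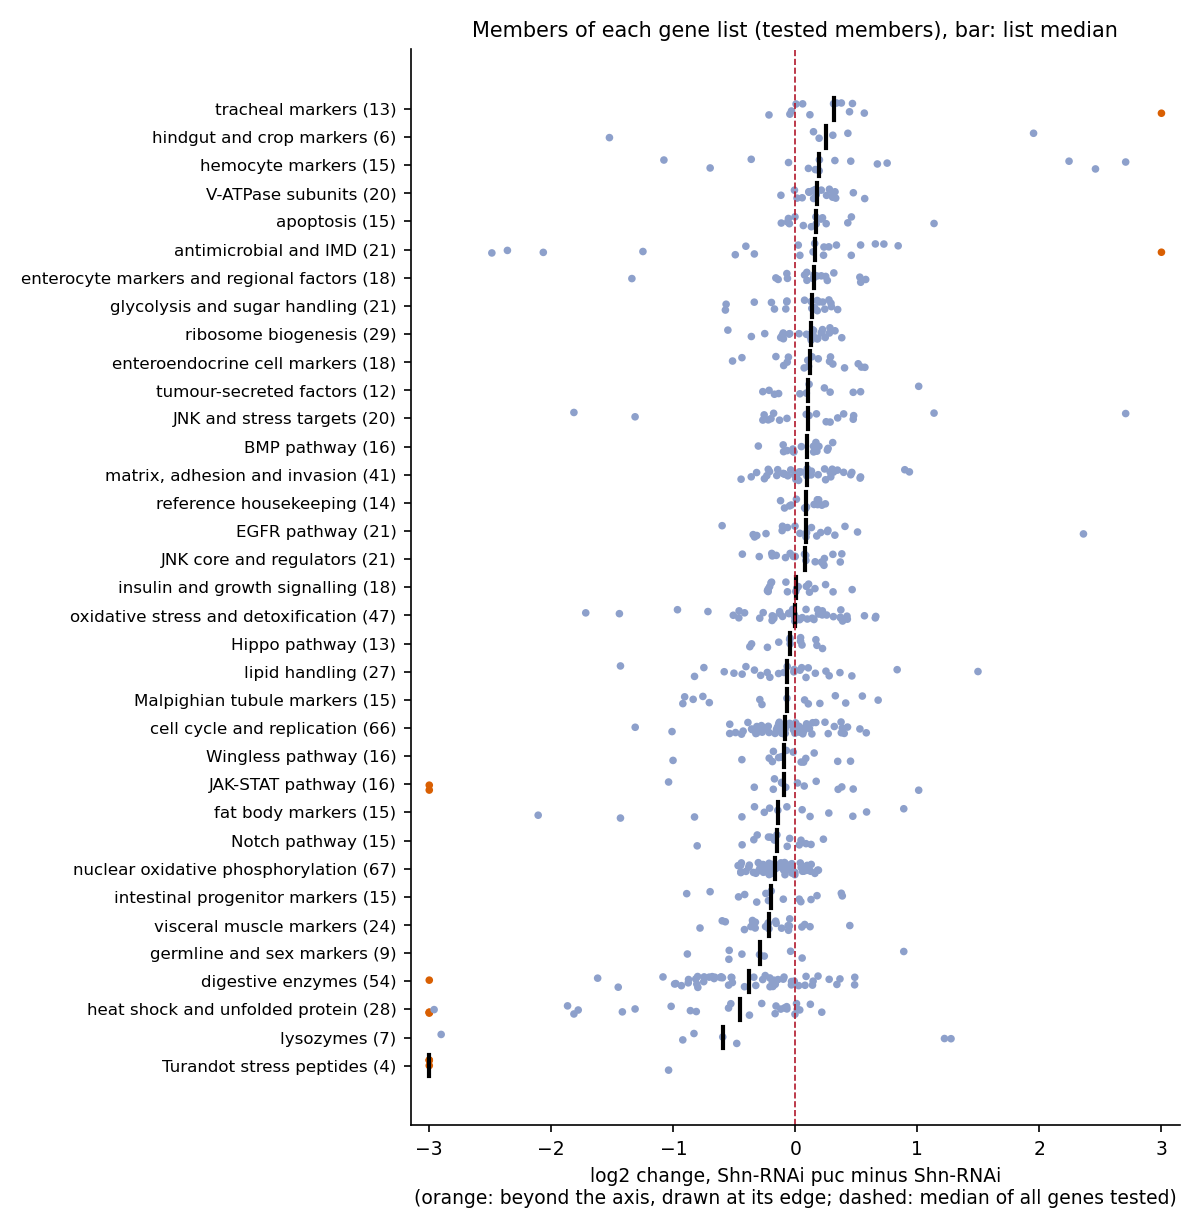
Each dot is 1 tested member of a gene list, placed on the x axis by its log2 difference of Shn-RNAi puc minus Shn-RNAi, with the number tested in brackets, a black bar at the list median and a dashed line at the median of all genes. Most list medians lie within 0.5 of the dashed line, and the Turandot median of -4.76 is drawn at the left edge.

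The puc allele lies on chromosome 3, so the positions of the changed genes were counted. Of the 13 called genes, 9 were among the 3985 genes tested on chromosome 3 (0.226%), 4 among the 1492 on X (0.268%) and 0 among the 3497 on chromosome 2. At an unadjusted p under 0.05 the share was 8.18% on chromosome 3, 5.63% on X and 4.58% on chromosome 2. DESeq2 called 58 of 4128 genes on chromosome 3 (1.41%), 14 of 1534 on X (0.913%) and 12 of 3589 on chromosome 2 (0.334%). The share of calls was thus higher on chromosome 3 and X than on chromosome 2 with both tools. The stocks from which the X and chromosome 3 came are not given in the sources used here, so an effect of the puc allele and one of other variants carried on the same chromosomes cannot be told apart.

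**Figure D5:**
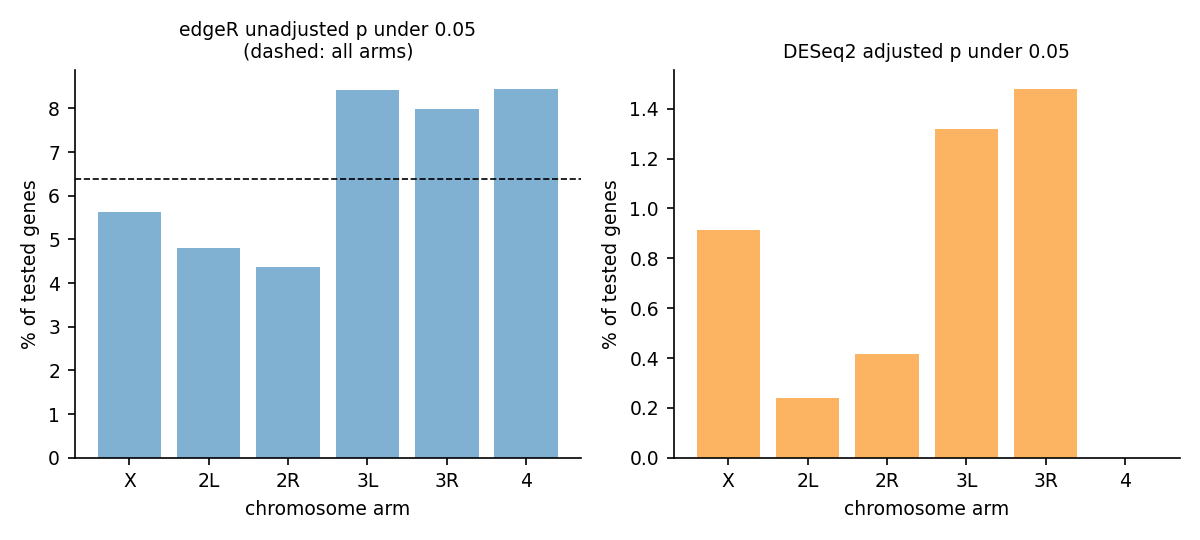
The left bars give the percentage of tested genes per chromosome arm with an unadjusted edgeR p under 0.05, with a dashed line at the 6.38% of all genes, and the right bars the percentage called by DESeq2. Arms 3L and 3R stand at 8.42% and 7.99% at the left and at 1.32% and 1.48% at the right, above arms 2L and 2R in both; arm 4 holds only 71 tested genes.

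Genes close to puc were counted apart. Within 2 Mb of puc 0 of 334 genes tested were called by edgeR, where 0.143% of all genes were. At that share 0 calls do not set the region apart. An unadjusted p under 0.05 was found in 6.89%, against 8.18% on the rest of 3R. DESeq2 called 4 of 342 (1.17%), Ass and Fst among them, against 1.48% on the whole of arm 3R. A gene that neither tool called, mAChR-B, encodes a muscarinic acetylcholine receptor and lies 40.6 kb from puc (centre to centre). It had 15 and 11 counts in the 2 Shn-RNAi puc libraries and 0 in the other 5 (adjusted p = 0.302 in edgeR, and none given by DESeq2). That is at least 9.23-fold higher than Shn-RNAi when Shn-RNAi is set at 3 counts over its 2 libraries. The arginine synthesis gene Ass, 1470.5 kb from puc, had 181 and 151 CPM in Shn-RNAi puc, against 89.6 and 83.6 CPM in Shn-RNAi and 284 to 321 CPM in controls (adjusted p = 0.164 in edgeR and 0.000200 in DESeq2). The cold-induced gene Frost (Fst), 1531.8 kb from puc, had 737 and 845 CPM in Shn-RNAi puc, against 135 and 354 CPM in Shn-RNAi and 87.4 to 110 CPM in controls (adjusted p = 0.273 in edgeR and 0.00124 in DESeq2). Without Shn-RNAi library 2, edgeR called Fst higher (adjusted p = 0.0445). All 3 genes lay above without overlap, and all were named after their values were seen.

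There were 18 genes with 0 counts in both Shn-RNAi libraries and at least 3 in each Shn-RNAi puc library, and 10 of these were also at 0 in the controls. In reverse there were 13 genes, 6 of them at 0 in the controls, among them TotZ, TotB and Sdic2. Sdic2 had 84 and 53 counts in the 2 Shn-RNAi libraries (adjusted p = 0.0792 in edgeR and 9.51e-05 in DESeq2). With only the 4 RNAi libraries, or with the transcript-length trend taken out, edgeR called it lower (adjusted p = 0.0152 and 0.0473). The histone genes His1:CG33810 and His1:CG33825, also at 0 in Shn-RNAi puc, had identical counts in Shn-RNAi (15 and 16). Whether these genes or Sdic2 share reads with related genes was not tested. Most genes at 0 in 1 RNAi group had few counts: only CG32581, CG42704 and CG42705 reached 60 counts in each Shn-RNAi puc library.

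Some of the genes with the smallest p lay next to each other. Of 58 genes with an adjusted p under 0.2 in edgeR and a known position, 12 had another within 20 kb, in 6 runs. The share in other sets of 58 genes was not counted, so whether these genes are clustered was not tested. LysX, which fell, lies 5484 bp from mwh, which rose. The cytochrome P450 genes Cyp12a5 and Cyp12a4 lie 454 bp apart. Cyp12a4 had 249 and 190 CPM in Shn-RNAi puc, against 97.0 and 119 CPM in Shn-RNAi and 181 to 221 CPM in controls. The gene next to ry, CG31157, had 0.909 and 0.707 CPM in Shn-RNAi puc, against 0.0560 and 0 CPM in Shn-RNAi. The other 3 runs were CG11893 with CG31436, TotA with TotC, and CG42704 with CG42705. In all of these runs except LysX with mwh, both genes differed in the same direction.

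By position in the BDGP6.54 build, the called genes on X were CG42704 (X:7412668-7413296), CG9360 (X:11763474-11764590), CG32581 (X:15796908-15799162) and Muc14A (X:16009114-16061722). On 3L they were LysX (3L:1194739-1195302), mwh (3L:1200786-1232700) and CG34451 (3L:15688517-15692068). On 3R they were Ugt86Dd (3R:11126597-11128328), CG7720 (3R:18759236-18795169), Burs (3R:21769518-21770279), CG11893 (3R:25289889-25291366), CG31436 (3R:25304137-25305651) and CG7912 (3R:30006034-30009189), with puc at 3R:8105332-8122294. The counts are per whole gene and do not say which exon or untranslated region the reads came from.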

How the data were processed

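The authors deposited 1 table of unscaled whole-number counts per gene for 7 libraries. Salmon 1.0.0, DESeq2 and the build BDGP6 are listed in the submitters' processing notes; the role of each, the rounding of any estimated counts and the use of strand are not given in the sources used here. The headers of the deposited counts give a genotype and a number, so columns were matched to groups only. The table held 10902 genes, and 10886 of them (99.85%) were found in the BDGP6.54 annotation of Ensembl 115, 842 through an older symbol.

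The deposited counts were analysed with edgeR 4.0.16 in R 4.3.3. The low-count filter filterByExpr removed 1826 genes and left 9076, which held 99.77% or more of every library's counts. Scaling was by TMM, and 1 quasi-likelihood model held all 7 libraries, so the controls share in the estimate of spread (4 residual degrees of freedom, common biological coefficient of variation 21.6%). P-values are two-sided and adjusted by Benjamini-Hochberg over 9076 genes. The SE of a log2 difference is derived from the F statistic, and 95% intervals are approximate. A group at 0 was set at 3 counts over its libraries; such bounds and counting intervals cover counting error only.

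The comparison, members and 35 gene lists were chosen with earlier results of these data known. Named genes had no overlap and 5 CPM or more in the higher group: the 10 with the largest called rise and the 10 with the largest called fall, filled up by smallest p, plus 22 set genes and up to 3 genes of each list by smallest p; others are said to be chosen after their values were seen. LysB, TotB, Hsp26, Hsp68, NimC1, eater, srp, PPO1, PPO3, Tep2, Pxn, Ppn, byn, Cyp12a4, Cyp12a5, CG31157, Zasp52, gammaTry and Sdic2 are also of the second kind. Near-identical copies (LysB, LysC, LysD and LysE, Hsp70 genes, PGRP-SC1a and PGRP-SC1b) may share reads. Whether other genes, such as gammaTry and Sdic2, share reads with related genes was not tested.

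Alternatives were DESeq2 1.42.0, RLE scaling, removal of the 50 most abundant genes, no filter, a filter of 1 CPM in 2 libraries, only the 4 RNAi libraries, a transcript-length trend taken out, each library left out, and the header number as a block. The edgeR steps were tested on simulated counts with known changes.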

Additional observations from a re-analysis of the deposited data

How the results depend on the processing

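All 13 called genes kept their direction under every alternative run. With RLE scaling, without the 50 most abundant genes, with no filter or with a filter of 1 CPM in 2 libraries there were 8 higher and 5 lower genes, as in the main analysis, and with only the 4 RNAi libraries 7 and 5. These last 12 shared 9 genes with the 13, since CG31436, Ugt86Dd, CG34451 and CG7912 lost their calls and 3 genes, among them TotA, gained one. DESeq2 called 38 higher and 46 lower genes, of which 30 and 43 differed by at least 2-fold. With the transcript-length trend taken out there were 18 higher and 11 lower genes, of which 18 and 9 differed by at least 2-fold. The difference between the longest and shortest of 4 equal length classes of genes was 0.08 and 0.33 (log2) in Shn-RNAi puc, against 0.62 and -0.27 in Shn-RNAi; the cause of the changed counts was not tested. Leaving out 1 library gave 4 to 7 higher and 0 to 9 lower genes, the same ranges holding for changes of at least 2-fold.

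The number in the column header did not pair the libraries (correlation across genes of the library 1 minus 2 differences between the 2 RNAi groups, -0.101). A replicate block on it gave 7 higher and 4 lower genes, 9 of the 13 among them: the same 4 genes lost their calls (adjusted p from 0.101 to 0.145, edgeR), and TotA and CG43120 were called (0.0251 each). Crossed numbers gave 7 and 5, with 9 of the 13 among them and 3 added genes, including TotA and gammaTry.

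Some uncalled genes changed sign. With the length trend taken out, esg had a log2 difference of -0.0304, ImpL2 of -0.0054 and Ppn of 0.0805. Over the fits without 1 library, the genes that changed sign had these ranges: shn -0.0134 to 0.33, bsk -0.0918 to 0.0879, grnd -0.27 to 0.83, kay -0.33 to 0.13, Gadd45 -0.0045 to 0.37, upd1 -0.46 to 0.18, esg -0.20 to 0.25, Dl -0.58 to 0.0687, pros -0.18 to 0.29, Myo31DF -0.12 to 0.35, ImpL2 -0.31 to 0.64, Pvf1 -0.0197 to 0.23, LysD -1.50 to 0.46, LysB -1.64 to 0.57, LysS -1.14 to 0.77, PGRP-SC1b -2.91 to 0.17, PGRP-SC2 -1.95 to 0.14, Hsp70Bbb -4.82 to 1.83, Hsp26 -2.78 to 1.27 and Hsp68 -2.72 to 1.11. Over 92 genes examined in this way, 56 values lost significance and 43 gained it.

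Depth limits the scarcest genes: at totals from 11552527 counts per library, Ilp8, NimC1 and eater could not be tested, and Burs rests on 1 count in Shn-RNAi puc.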
